A study of Rattus norvegicus with 3 samples.

Results

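The Cited genes encode small nuclear proteins that bind the acetyltransferases CBP and p300, and they are described here together with Crebbp, the gene of CBP. The genes were chosen by name, with the night and day values of Cited4 in these libraries already known, so all levels and ratios of the named genes are descriptions of the measured values and not tests. Of 5 genes sought, Cited1, Cited2, Cited4 and Crebbp were found, each as 1 entry among 16629 genes and unnamed regions. Ep300, the gene of p300, was not analysed here.

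The RNA came from adult Sprague-Dawley rats kept in a cycle of 14 h light and 10 h dark, with no other treatment named. Pineal glands collected in the night at zeitgeber time 19 (hours counted from lights on) gave one library, and pineal glands collected at midday, zeitgeber time 7, gave another. The remaining library, also from zeitgeber time 7, was a pool of RNA in equal amounts from 15 tissues other than the pineal gland, made up of 5 brain regions and of spinal cord, pituitary, retina, adrenal gland, liver, heart, kidney, lung, small intestine and skeletal muscle. Each group was 1 library of poly(A) RNA, so no difference below has a replicate check and none has a p-value. Neither the number of glands in a library nor the sex of the rats is stated in the sources used, and a level in the pool is an average that does not tell which tissue expressed a gene.

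CBP and p300 do not bind DNA themselves. They are brought to genes by transcription factors, among them CREB when protein kinase A has phosphorylated it, and they acetylate histones and other proteins there. In the rat pineal gland, noradrenaline released at night raises cyclic AMP and activates this pathway. The Cited proteins, which also lack a DNA-binding domain, hold on to the same coactivators through an acidic carboxy-terminal region: they assist factors such as TFAP2 and SMAD proteins, and Cited2 and Cited4 compete with the hypoxia factor HIF1A for its docking site on CBP and p300.

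Cited4 was the member whose level differed most between night and day. It stood at 26.8 FPKM (a fragment count divided by transcript length in kilobases and by the size of the library) in the night pineal library, 0.239 FPKM in the day pineal library and 2.72 FPKM in the mixed tissues. The night gland thus had the highest level of the 3 libraries and the day gland the lowest, with the mixed tissues between them. Within each library, 89.1% of all genes and regions lay below Cited4 by night, 32.8% by day and 39.8% in the mixed tissues.

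The day value of Cited4 rests on very few reads. The gene occupies 893 bp on chromosome 5 (chr5:141258563-141259455, rn4), and with the depth estimated for each library its values correspond to about 127 fragments by night, 2 by day and 24 in the mixed tissues. The exact 95% counting bounds are 22.4 to 32.0 FPKM by night, 0.0311 to 0.926 FPKM by day and 1.77 to 4.11 FPKM in the mixed tissues, and they do not overlap. In FPKM the night library was 112-fold above the day library, with an exact 95% counting interval of 28.5 to 876. Such bounds express the error of counting, and take no account of variation among animals or library preparations.

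On the scale used for comparisons across genes, the log2 ratio of FPKM + 1, which narrows the ratios of low values, Cited4 stood at 4.49 for night over day. This was place 13 from the top among 9826 genes and regions with FPKM of at least 1 in either pineal library, whose median was -0.11. Of the 4 members, 1 was at least 2-fold higher by night and 0 were at least 2-fold lower, where 4.18% of all genes compared were higher and 2.11% lower. Because the night and day values of Cited4 were known when the genes were chosen, nothing is read from that count.

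**Figure D1:**
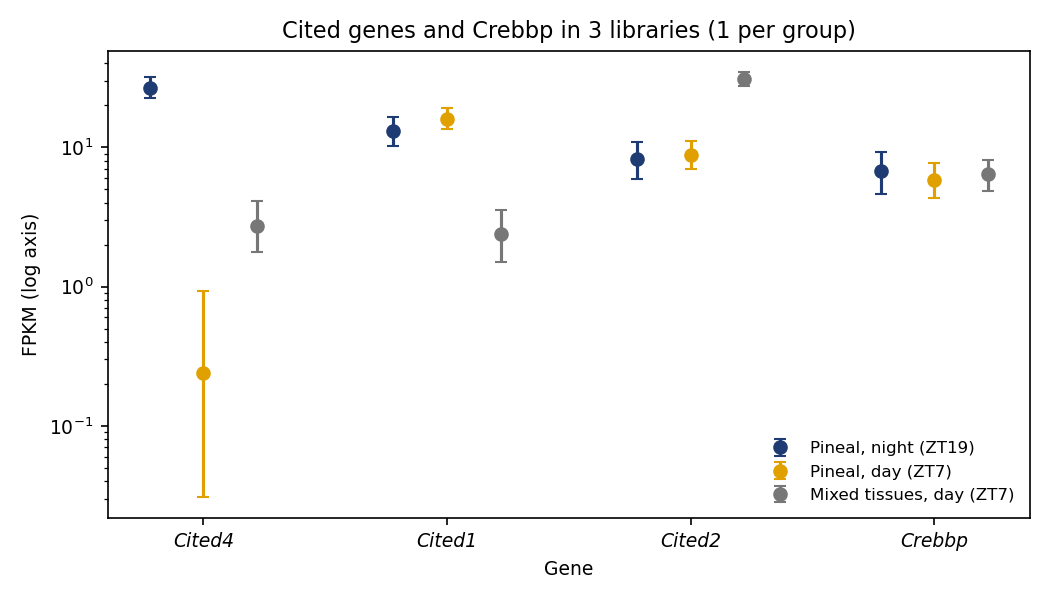
Levels of Cited4, Cited1, Cited2 and Crebbp, in FPKM on a log axis, in the night pineal, day pineal and mixed-tissue libraries. Points are the values of single libraries, and bars are exact 95% counting bounds, for the 893 bp span of Cited4 and for 1 kb of transcript in the other genes; Cited4 runs from 26.8 FPKM by night down to 0.239 FPKM by day, while Crebbp lies between 5.81 and 6.71 FPKM in all 3 libraries.

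Cited1, first found in pigmented cells and known as a partner of SMAD4 and oestrogen receptors, did not share this difference. It was at 13.1 FPKM in the night gland, 16.1 FPKM in the day gland and 2.39 FPKM in the mixed tissues (chrX:90301066-90305762). Both pineal values lay above the mixed tissues, and the counting bounds of the night value (10.2 to 16.5 FPKM for 1 kb of transcript) overlapped those of the day value (13.6 to 19.04 FPKM). The night to day ratio was 0.816 in FPKM, with a counting interval of 0.597 to 1.09, and the log2 ratio of FPKM + 1 was -0.27.

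Cited2, a brake on HIF1A and a coactivator of TFAP2 factors, had the opposite preference between tissues. Its level was 8.23 FPKM in the night gland, 8.87 FPKM in the day gland and 31.1 FPKM in the mixed tissues (chr1:12721499-12723943). The pool was the highest of the 3 libraries, and the pineal values were close together, with a night to day ratio of 0.927 and a counting interval of 0.620 to 1.36. The log2 ratio of FPKM + 1 for night over day was -0.10, and 0.01 when the ratios were centred on the median of all genes compared, so its sign depends on the scaling.

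Crebbp was at nearly the same level everywhere: 6.71 FPKM in the night gland, 5.81 FPKM in the day gland and 6.39 FPKM in the mixed tissues (chr10:11598679-11725530). The bounds for 1 kb of transcript were 4.61 to 9.21, 4.35 to 7.68 and 4.89 to 8.17 FPKM in the same order, and all overlapped. Crebbp was 1.16-fold higher by night than by day in FPKM, with an interval of 0.716 to 1.78 (log2 ratio of FPKM + 1 0.18). The width of that interval depends on the 1 kb assumed for the transcript, and it does not show that the levels were equal.

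Against the mixed tissues, the day gland had 6.74-fold more Cited1 in FPKM, with a counting interval of 4.37 to 11.1 and a log2 ratio of FPKM + 1 of 2.33. Cited1 was place 193 from the top among 11934 genes and regions compared. It was the 1 member at least 4-fold higher in the day gland than in the mixed tissues, where 2.29% of all genes were higher and 13.2% at least 4-fold lower. With a pseudocount of 5 FPKM in place of 1, its log2 ratio was 1.51 and it no longer passed 4-fold.

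None of the 4 members was at least 4-fold lower in the day gland on that scale, but Cited2 and Cited4 both lay on the lower side. Cited2 was at 8.87 FPKM in the day gland and 31.1 FPKM in the mixed tissues, a ratio of 0.285 with a counting interval of 0.218 to 0.366 (log2 ratio of FPKM + 1 -1.70). Cited4 was at 0.239 and 2.72 FPKM, a ratio of 0.0879 with an interval of 0.0106 to 0.374 from about 2 and 24 fragments (log2 -1.59). For Cited4 the choice of pseudocount decides the call, since a pseudocount of 0.1 FPKM gave -3.06, past 4-fold. For Crebbp the log2 ratio was -0.12. The median log2 ratio of all genes compared was -0.27, and it moved to -0.06 when the libraries were rescaled to the same sum, so ratios against the pool are best read relative to that shift.

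In the night gland 2 of the 4 members, Cited1 and Cited4, exceeded the mixed tissues at least 4-fold and 0 were at least 4-fold below, where 3.09% of all 11951 genes compared were higher and 14.4% lower. Cited4 was 9.88-fold above the pool (counting interval 6.26 to 15.8, log2 ratio of FPKM + 1 2.90) and Cited1 5.499-fold (3.40 to 9.27, log2 2.06). Cited2 was at a ratio of 0.265 (0.186 to 0.361, log2 -1.80) and Crebbp at 1.05 (0.666 to 1.60, log2 0.06). With a pseudocount of 5 FPKM, Cited1 stood at 1.295, under 4-fold. The comparisons of the night and the day gland with the pool share the mixed-tissue library, so their values are set side by side and not correlated. With the ratios centred on their median, 548 genes passed 4-fold on the higher and 1286 on the lower side, in place of 369 and 1725.

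FPKM is scaled to transcript length, so levels can be set side by side between the Cited genes. In the night gland the order was Cited4, Cited1, Cited2, and their counting bounds did not overlap between Cited4 and Cited1 but did between Cited1 and Cited2. In the day gland it was Cited1, Cited2, Cited4, with no overlap between neighbours. In the mixed tissues Cited2 came first by a wide margin, and Cited4 and Cited1 did not differ beyond their bounds (1.77 to 4.11 and 1.499 to 3.55 FPKM).

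The summed level of the 3 Cited genes was 48.2 FPKM in the night gland, 25.2 FPKM in the day gland and 36.2 FPKM in the mixed tissues. Cited4 made up 55.7% of that sum by night, 0.948% by day and 7.51% in the mixed tissues. Cited1 contributed 27.3%, 63.9% and 6.60%, and Cited2 17.1%, 35.2% and 85.9%, in the same order of libraries. A different gene therefore led the sum in each library. Without Cited4 the sum was 21.4 FPKM by night and 25.0 FPKM by day. Set against Crebbp, the 3 genes together had 7.18 times its FPKM in the night gland, 4.34 times in the day gland and 5.66 times in the mixed tissues. These are ratios of RNA levels and say nothing of the amounts of protein.

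**Figure D2:**
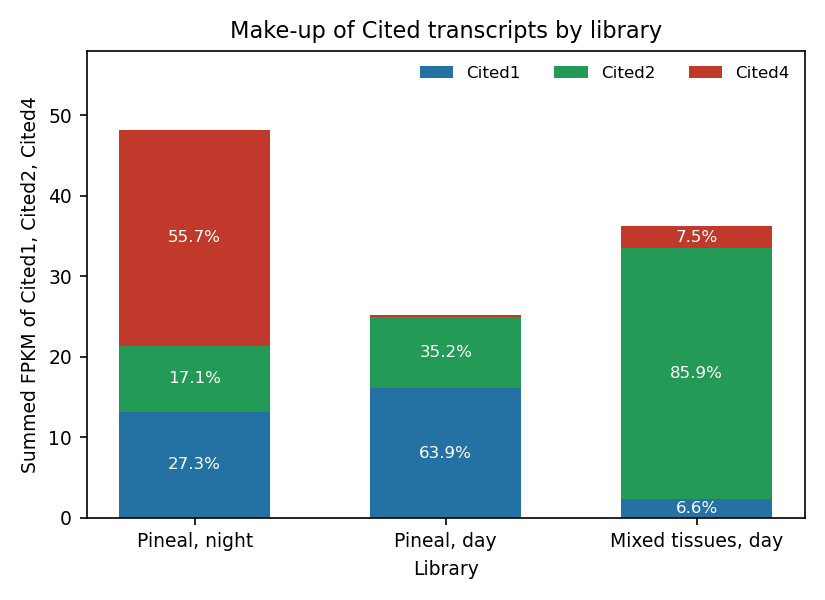
Summed FPKM of Cited1, Cited2 and Cited4 in the night pineal, day pineal and mixed-tissue libraries, 1 bar per library, with the share of each gene printed in its segment. Cited4 is the largest segment by night at 55.7%, Cited1 by day at 63.9% and Cited2 in the mixed tissues at 85.9%.

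The promoters of the 3 Cited genes are shown because these genes differed in opposite ways between the libraries. Each line is the 250 bases before the annotated start, from RefSeq on the build GRCr8, 5′ to 3′ on the strand of the gene. The stretches are chr5:139531915-139532164 (plus strand) for Cited4, chrX:71395024-71395273 (minus strand) for Cited1 and chr1:14132053-14132302 (plus strand) for Cited2. Capitals mark the CCAAT box (CCAAT), the TATA core (TATAA, on either strand) and the E-box (CACGTG).
Cited4: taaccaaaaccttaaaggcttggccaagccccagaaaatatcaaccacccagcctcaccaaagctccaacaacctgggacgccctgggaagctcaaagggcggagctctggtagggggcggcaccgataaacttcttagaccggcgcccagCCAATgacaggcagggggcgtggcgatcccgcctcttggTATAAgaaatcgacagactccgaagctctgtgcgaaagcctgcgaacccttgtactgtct
Cited1: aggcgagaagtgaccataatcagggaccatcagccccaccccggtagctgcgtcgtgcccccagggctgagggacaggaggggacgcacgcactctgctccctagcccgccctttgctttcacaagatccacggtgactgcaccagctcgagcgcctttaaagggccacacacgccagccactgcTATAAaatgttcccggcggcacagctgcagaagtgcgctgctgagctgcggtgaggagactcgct
Cited2: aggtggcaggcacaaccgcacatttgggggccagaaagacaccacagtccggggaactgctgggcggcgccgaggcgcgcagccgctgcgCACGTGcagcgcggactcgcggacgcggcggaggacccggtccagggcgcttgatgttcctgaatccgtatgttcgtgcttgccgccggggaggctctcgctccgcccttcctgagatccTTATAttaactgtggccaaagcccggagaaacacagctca

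All motifs were searched on both strands of these 250 bases and of the same stretch of all 33469 promoters in the table. The cyclic AMP response element in its full form, TGACGTCA, and the half-site contained in it, TGACG, were found in none of the promoters of Cited4, Cited1, Cited2 and Crebbp. Of all promoters, 1.59% held the full form and 18.2% the half-site. A missing match says only that these letters are not in this stretch.

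The Cited4 promoter held a CCAAT box starting 99 bases before the start (34.0% of all promoters hold one) and a TATA core starting 60 bases before it (24.0%). It also held the GC box GGGCGG, starting 153 and 135 bases before the start (30.5%), and GCGTG, one form of the core to which hypoxia factors bind, 82 bases before it (25.9%). Cited1 held a TATA core at 65 bases, the GCGTG core at 164 and 80 bases and a GC box at 144 bases. Cited2 held a TATA core on the opposite strand at 40 bases, an E-box at 160 bases (5.59%) and GC boxes at 189 and 58 bases, and Crebbp held 3 GC boxes. That E-box contains ACGTG, the other form of the hypoxia core, on both strands (16.6%). A match of these lengths is a string of letters and not an observed binding site.

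Neighbouring genes give the local setting on rn4. No other entry lay nearer to Cited4 than 90229 bp. On that side was Nfyc, a subunit of the factor that binds CCAAT boxes, at 13.2 FPKM by night and 14.5 FPKM by day. On the other side, at 92746 bp, was Ctps, a CTP synthase, at 22.3 FPKM by night and 10.7 FPKM by day (log2 ratio of FPKM + 1 0.99), followed by Slfnl1 (0.907 and 0.772 FPKM) and Scmh1 (15.1 and 14.5 FPKM), a Polycomb group gene. Hdac8, a deacetylase 30238 bp from Cited1, was at 2.39 FPKM by night and 4.24 FPKM by day (log2 -0.63).

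Genes with the pattern most like that of each member were taken from 8408 genes with FPKM of at least 5 in their highest library. Unnamed regions, very short genes and placeholder symbols, such as those beginning with LOC or RGD, were left out. The measure was the distance in a plane of the night over day and the day over mixed log2 ratio, which rest on the same 3 libraries. The 5 nearest to Cited4 were Cd24, a surface glycoprotein (distance 0.48), the nuclear receptor genes Nr4a1 (0.77) and Nr4a3 (0.78), Irs2, an adaptor of insulin signalling (0.82), and Rgs2, a regulator of G protein signalling (0.87). Cd24 was at 268 FPKM by night, 15.6 by day and 50.0 in the mixed tissues. Nr4a3, at 16.1, 0.312 and 2.95 FPKM, was the one closest to Cited4 in level as well. Both ratios of Cited4 rest on its day value of about 2 fragments. The counting bounds of Cited4 for day over mixed tissues ran from -2.31 to -0.52 in log2, wider than any of these distances. The 5 genes and their order are therefore only the nearest by measured value.

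The other members had closer neighbours in that plane, at distances far below their own counting bounds. For Crebbp those bounds, for 1 kb of transcript, ran from -0.63 to 0.93 for night over day. The genes named are therefore only the nearest by measured value. For Cited1 these were Sat2 (distance 0.09; 68.2 FPKM by night, 87.9 by day and 17.1 in the mixed tissues) and Pax3, a paired-box factor (0.10; 4.48, 5.57 and 0.214 FPKM). For Cited2 they were Ppp1r1b, a phosphatase inhibitor of striatal neurons (0.03; 7.61, 8.03 and 28.7 FPKM), and Arg2, a mitochondrial arginase (0.03; 1.08, 1.21 and 6.02 FPKM). For Crebbp they were Rfx5, a regulator of MHC class II genes (0.01; 9.89, 8.60 and 9.37 FPKM), and Lrp6, a Wnt coreceptor (0.01; 7.81, 6.73 and 7.43 FPKM).

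**Figure D3:**
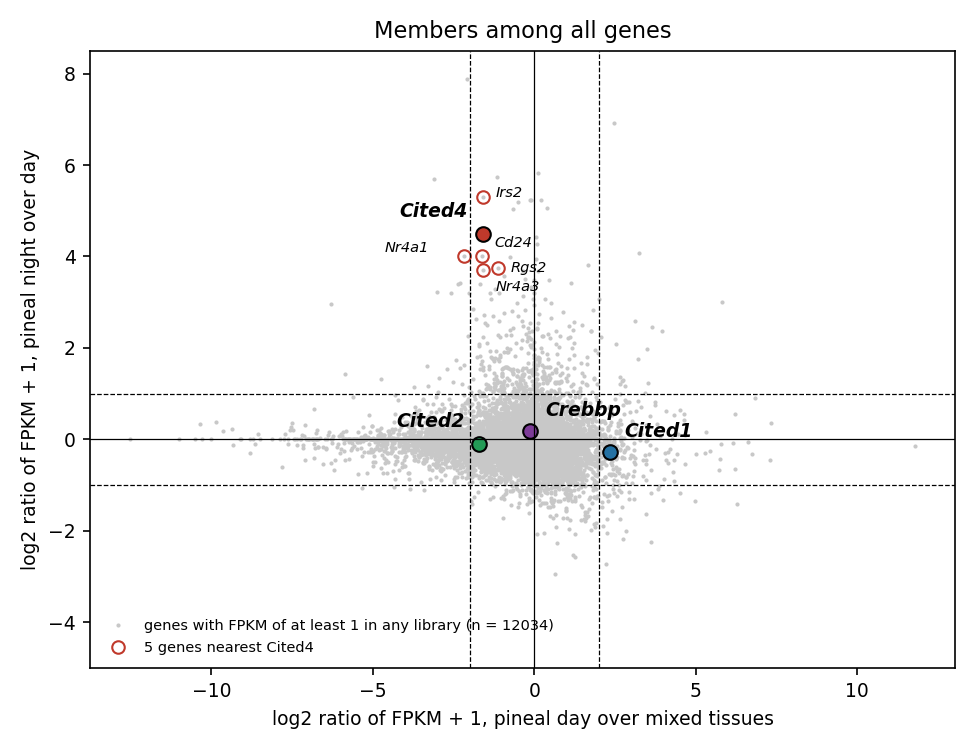
Log2 ratio of FPKM + 1 for night over day (vertical) against day over mixed tissues (horizontal) for 12034 genes and regions with FPKM of at least 1 in any library, with the 4 members as filled points and the 5 genes nearest Cited4 as open circles. Dashed lines mark 2-fold on the vertical and 4-fold on the horizontal axis; Cited4 lies at 4.49 and -1.59, far above Cited2, which has nearly the same horizontal position at -1.70.

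Partners through which CBP and the Cited proteins reach genes were described with 6 lists, for which counts and medians stand beside those of all genes. In the list of CREB family and CRTC coactivators, 1 of 7 members compared was at least 2-fold higher by night and 0 were lower, where 4.18% of all genes were higher and 2.11% lower, and the same shares apply to the night over day counts of the lists that follow. The median log2 ratio was 0.11, against -0.11 for all genes. The member was Crem, a cyclic AMP-responsive factor, with 428 FPKM in the night gland against 12.1 FPKM in the day gland (log2 5.04, the sum of its entries). At the other end was Crtc2, a CREB coactivator, at 11.1 and 14.1 FPKM (log2 -0.31). Creb1 itself, named after its values were seen, was low in every library, at 1.06 FPKM by night, 0.908 by day and 1.49 in the mixed tissues.

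The list of DNA-binding partners holds partners of Cited proteins and of CBP/p300, the latter including Hif1a, with which Cited2 and Cited4 compete. Of its 18 genes, 8 could be compared between night and day. All 8 lay within 2-fold on the FPKM + 1 scale (median -0.08). A pseudocount of 0.1 FPKM gave 1 higher and 1 lower. The largest ratios were those of Ppara, a lipid-sensing nuclear receptor (1.13 FPKM in the night gland against 0.160 FPKM in the day gland, log2 0.88), and Smad3, a transducer of TGF-beta signals (2.49 and 5.09 FPKM, log2 -0.81). The day value of Ppara lies under the 0.343 FPKM that 3 fragments on 1 kb amount to. The TFAP2 factors, best known of the Cited partners, were scarce in the gland: Tfap2a was at 0.302 FPKM by night, 0.387 by day and 1.43 in the mixed tissues, Tfap2b at 0.312, 0.673 and 7.01, and Tfap2c was listed at 0 by night, at 0.0410 by day and at 1.32 in the mixed tissues. Hif1a was abundant, at 113 FPKM by night, 86.9 by day and 32.3 in the mixed tissues (log2 0.38 for night over day). Hif1a and the TFAP2 genes were named after their values were seen.

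Targets and regulators of hypoxia factors were within 2-fold on the FPKM + 1 scale in all 11 of the members compared (median 0.13). Ddit4, an inhibitor of mTOR signalling, was nearest the limit with 28.4 FPKM in the night gland against 13.8 FPKM in the day gland (log2 0.995), and Pdk1, a pyruvate dehydrogenase kinase, was at the other end with 3.95 and 5.996 FPKM (log2 -0.50). With the ratios centred, or with a pseudocount of 0.1 FPKM, 1 of the 11 passed 2-fold on the higher side.

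The 11 other CBP/p300-binding factors reported here lay within 2-fold between night and day on the FPKM + 1 scale (median -0.08). Fos, part of AP-1, was nearest the limit with 21.3 FPKM in the night gland against 10.3 FPKM in the day gland (log2 0.99), and its partner Jun was at the other end with 7.99 against 13.6 FPKM (log2 -0.70). After centring, 2 members of this list were at least 2-fold higher, and with a pseudocount of 0.1 FPKM 1 was.

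The 10 other acetyltransferases and p160 coactivators compared were all within 2-fold on the same scale (median -0.05), like Crebbp. The extremes were Kat6a, listed as Myst3 (18.8 FPKM in the night gland against 15.0 FPKM in the day gland, log2 0.31), and Kat2a (8.13 and 11.1 FPKM, log2 -0.41). Of the 17 deacetylases and corepressors listed, which act against them, 12 could be compared. Among the 12, 2 were at least 2-fold lower by night and 0 higher (median -0.26), where 2.11% of all genes were lower. Hdac5 had 20.6 FPKM in the night gland against 51.6 FPKM in the day gland (log2 -1.28). Hdac9, matched by its gene identifier, had 0.595 against 3.16 FPKM (log2 -1.38). Its night value lies close to the 0.568 FPKM that 3 fragments on 1 kb amount to in that library. The count was 1 with a pseudocount of 5 FPKM, and also with a filter at FPKM 5, which leaves Hdac9 out. The highest ratio in that list was that of Hdac1, at 2.86 and 2.02 FPKM (log2 0.35), a low value that is uncertain because the reference names 19 copies of the gene.

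**Figure D4:**
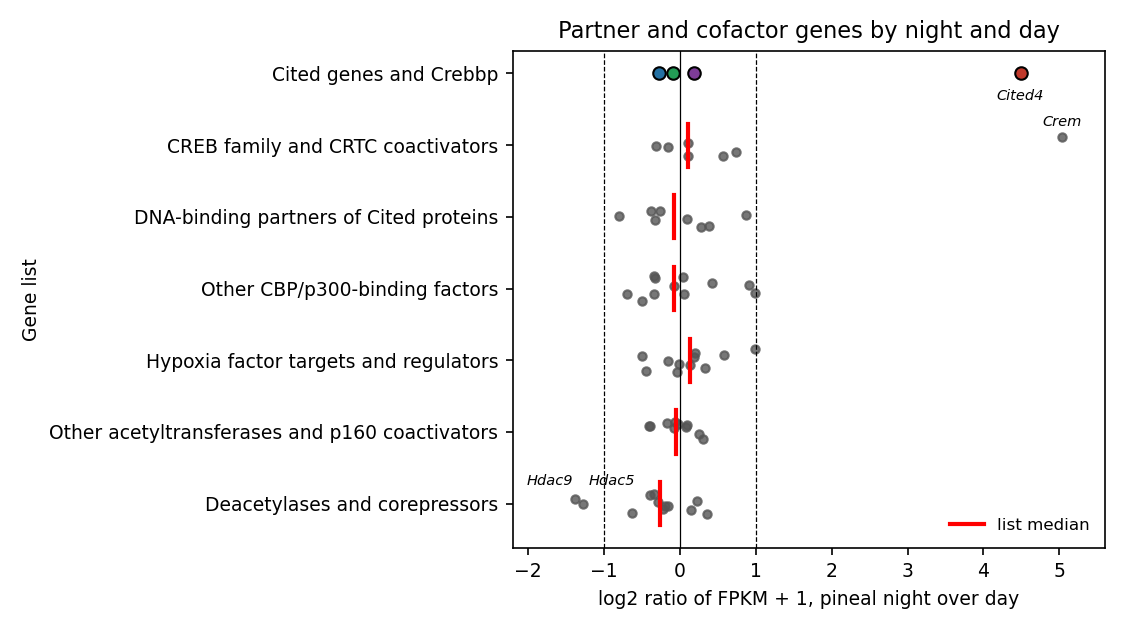
Log2 ratio of FPKM + 1, night over day, for the 4 members in the top row and for the genes compared in 6 lists of partners and cofactors, 1 point per gene, with red bars for the list medians and dashed lines at 2-fold. Apart from Cited4 and Crem on the higher side and Hdac5 and Hdac9 on the lower side, the genes lie within 2-fold on that scale.

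Against the mixed tissues by day, where the shares over all genes were 2.29% for at least 4-fold higher and 13.2% for lower, 4 list members passed 4-fold. The genes compared were 8 in the CREB list, 14 among the DNA-binding partners and 14 in the hypoxia list. The other binding factors had 11, the acetyltransferases 10 and the deacetylases 12. Tfap2b, the hypoxia-inducible prolyl hydroxylase gene Egln3 and Hdac11 were lower in the gland. The mitochondrial deacetylase gene Sirt3 was higher, at 74.8 FPKM against 17.96 in the mixed tissues (log2 2.00, at the 4-fold limit). With a pseudocount of 5 FPKM 0 members of these lists passed. Tfap2b also lost its call on centring, and Hdac11 on centring and on rescaling. A pseudocount of 0.1 FPKM gave 6 lower genes in the list of DNA-binding partners and 3 in the hypoxia list. Median ratios were 0.04 for the CREB list, -0.92 for the DNA-binding partners, 0.10 for the other binding factors and -0.62 for the hypoxia list. They were 0.33 for acetyltransferases and 0.55 for deacetylases, beside -0.27 for all genes.

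The libraries carried the labelled tissue. All 8 pinealocyte markers, with a summed level of 7838 FPKM by night, 6997 by day and 68.4 in the mixed tissues, passed 4-fold on the higher side against the pool, in the night gland as in the day gland. Sums of other marker lists were lower by night than by day and highest in the mixed tissues: 5 of 6 astrocyte markers were found and summed to 88.1, 119 and 690 FPKM, 6 of 6 microglia markers to 45.4, 51.4 and 80.5, and 6 of 6 fibroblast and meningeal markers to 180, 242 and 365. The 5 of 7 endothelial markers found gave 17.6, 21.1 and 85.0 FPKM, with Cldn5 listed at 0 in all 3 libraries, the 3 erythroid markers 357, 386 and 1298, and the 5 oligodendrocyte markers 16.1, 30.0 and 4617. Single markers did not all follow the sum of their list. Lum (15.8 FPKM by night, 18.3 by day and 11.9 in the mixed tissues) and Pdgfra (14.0, 13.6 and 9.52) were higher in the gland than in the pool. Cx3cr1, C1qa, Pecam1, Pdgfra, Hba-a2 and Mag were higher by night than by day. The part of these cell types in the values of Cited1 and Cited2 was not tested, and in bulk RNA fewer cells of a type and less RNA per cell cannot be told apart.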

How the data were processed

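Poly(A) RNA libraries of 3 groups, 1 library each, were compared by value, without tests. The deposited values are FPKM, per the file headers, computed by the authors; TopHat 1.3.1, Cufflinks 1.2.0 and the build rn4 are named in the submitters' processing notes. No source used here gives their options, the annotation, or the handling of strand and of reads that map to several places. Reads of near-identical copies could be dropped or shared: the reference names a gene, Cited1l1, resembling Cited1. Per the labels, each library took 10 µg of total RNA, random priming, 15 PCR cycles and paired reads of 51 bases, so fragment counts without molecular identifiers are not independent molecules.

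The table of the series equalled the files per sample in 51267 of 51267 values. Entries of 1 symbol were summed, so 17089 entries became 16629. Ratios are log2 of FPKM + 1, taken where either library reached 1 FPKM, called at 2-fold for night over day and at 4-fold against the mixed tissues. Depth was estimated from 1341 receptor gene models of 800 to 1100 bp, whose smallest values above 0 were taken as steps of 1 fragment. The second step should lie at 2 times the first. It lay at 1.76 times by night, from 1 model, and at 1.97 by day and 2.03 in the mixed tissues, from 3 models each. The night depth is therefore the least certain. The steps gave 5.29, 8.73 and 9.72 fragments per kb at 1 FPKM in the night, day and mixed libraries, the night value from 4 models. By this estimate the night library had 60.5% of the depth of the day library, and 3 fragments on 1 kb correspond to 0.568, 0.343 and 0.308 FPKM in the 3 libraries. Intervals are exact Poisson bounds for levels and exact Clopper-Pearson bounds, converted to ratios, from fragments rounded to whole numbers. They leave out the error of the depth estimate. Where the transcript length is not given, 1 kb was assumed, which is wider than needed for longer transcripts.

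The genes and lists were chosen with earlier results of these data known. List genes were named if at least 2-fold apart between night and day with FPKM of at least 5, or if they had the highest or lowest ratio of their list. A gene of the list of other CBP/p300-binding factors is not reported here, and the counts of that list leave it out. Symbols were matched directly or through the gene identifiers of the RefSeq table (GRCr8). Alternatives were pseudocounts of 0.1 and 5 FPKM, no filter or one at FPKM 5, libraries rescaled to 1 sum, centring, and the highest entry per symbol. Python 3.11.15, numpy 2.4.6, pandas 2.3.3, scipy 1.17.1 and matplotlib 3.10.9 were used, and the calculations were tested on simulated data.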

Additional observations from a re-analysis of the deposited data

How the results depend on the processing

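Of the recomputed ratios of the members, 78 stayed within the log2 bounds of the reported value and 5 moved beyond them. The changed filters and the highest entry per symbol could not alter a member's ratio, as each member has 1 entry. Ratios from those settings are among the 78 by construction, so that count does not measure stability. With a pseudocount of 0.1 FPKM, Cited4 stood at 6.31 for night over day and at -3.06 for day over mixed tissues, and with 5 FPKM at 2.60 for night over day and 2.04 for night over mixed tissues. Cited1 with 5 FPKM stood at 1.51 for day and 1.295 for night over mixed tissues, both under 4-fold. With a filter at FPKM 5, Cited4 was not compared between the day gland and the pool. For all genes, a pseudocount of 0.1 gave 518 genes lower by night than by day, 424 higher and 2611 lower by day against the pool, and 2831 lower by night against it. A pseudocount of 5 gave 231 and 64 by night over day, 156 and 522 by day over the pool, and 207 and 553 by night over the pool. These shifts follow from how a pseudocount weighs low values. Counts over lists moved by more than 1.5 times in 30 cases and stayed within that in 222. A count of 0 that stayed at 0 was scored as within, and any change from 0 as moved. Many list counts were 0, so the 222 cases do not show that the counts are stable. No paired analysis was possible because each group has 1 library; for the same reason no replicate could be left out. The day value of Cited4 rests on about 2 fragments.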
